A study of Glycine max with 44 samples.

Results

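Root tips of the aluminium-tolerant soybean genotype PI416937 were compared after 72 h and after 48 h of growth with 10 µM aluminium (Al), to see which transcripts came down or went up late in the exposure. The comparison rests on 6 of the 44 Affymetrix soybean arrays of the series, chosen by genotype, treatment and time alone: 3 arrays with Al at 72 h and 3 arrays with Al at 48 h. They are read beside 3 arrays of untreated (0 µM Al) PI416937 roots at 72 h and 3 at 48 h, and beside the 6 arrays of the Al-sensitive genotype Young with Al at the same times. All plants grew in hydroponics in a growth chamber, and each array holds total RNA of tap root tips 1 cm long. Nothing in the labels ties the replicates to separate cultures. The p-values therefore describe only how these samples vary, which may be partly technical. In such bulk RNA, fewer cells of a type and less RNA per cell cannot be told apart.

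Aluminium ions in acid solution stop root elongation within hours and bind cell walls and membranes of the root apex. Roots answer with oxidative and defence programmes, among them WRKY and NAC transcription factors, glutathione S-transferases, phenylpropanoid enzymes and pathogenesis-related proteins. Tolerant plants are known for organic acid release, which chelates Al outside the root. A late measurement shows whether such transcripts stay up or return to the level of untreated roots while Al is still present.

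Values are levels or differences on the scale log2(intensity + 16), on which the background was set at 4.42. This background is the 95th percentile of probe sets for the oomycete and the nematode that the array also carries, so most of those read below it. A difference on this scale understates the change of a dim gene. Of the soybean probe sets, 35289 exceeded the background in at least 1 of the 16 groups and were tested with limma, and a probe set was called at a Benjamini-Hochberg adjusted p under 0.05. A value after ± is the standard error of the fitted difference, or the SD where marked.

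Several libraries stood apart from their groups. The library labelled untreated 72 h replicate 1 had WRKY30 at 7.85, against 4.43 and 4.46 in the other untreated 72 h arrays, and across probe sets it was most like Young with Al at 72 h, replicate 3. Counts and calls that rest on untreated 72 h roots are therefore also given without it. Al 48 h replicate 3 had WRKY30 at 8.87, against 10.30 and 11.07 in replicates 1 and 2. The Al 72 h arrays carry sample codes 29 to 31 and the Al 48 h arrays codes 3, 15 and 27, so time and run of codes cannot be told apart in the change with Al alone. The untreated 72 h arrays (codes 32 to 34) belong to the same run. The 3' minus 5' difference of the actin control was 8.18 ± 0.14 at 72 h and 7.62 ± 0.22 at 48 h with Al (SD, n = 3 each). These groups did not overlap (exact permutation test, two-sided, p = 0.1, which is the lowest value open to 3 against 3), while the untreated values of 8.03 ± 0.19 at 72 h and 7.75 ± 0.083 at 48 h did. The same difference of the GST control was 2.26 ± 0.30 at 72 h and 1.55 ± 0.14 at 48 h with Al, without overlap, and 2.08 ± 0.16 at 72 h and 2.14 ± 0.23 at 48 h untreated, with overlap. The part of these differences in the results was not tested. The Al 72 h arrays and untreated 72 h replicate 1 carried the PI416937 pattern of the probe sets that separate the genotypes. Untreated 72 h replicate 1 averaged 9.78 over the 22 high in PI416937 and 5.29 over the 5 high in Young. Young with Al at 72 h, replicate 3, averaged 6.31 and 9.18. Those probe sets were picked on the arrays before 72 h, so the Al 48 h arrays carry the pattern by choice. The treatment labels could not be checked apart from the response itself. Al 72 h replicate 1 was most like untreated 72 h replicate 3 (r = 0.98) and Al 72 h replicate 2 most like untreated 72 h replicate 2 (r = 0.995). Whether 72 h samples were exchanged between treatments was not tested, and an exchange would change what the Al 72 h values stand for.

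Summed levels of markers of other tissues overlapped between the times with Al. The summed intensity of 12 probe sets for light-exposed tissue was 11710 to 13140 at 72 h and 11290 to 18090 at 48 h with Al, against 11500 to 11850 at 72 h and 14330 to 17550 at 48 h untreated. Among the 12, 1 was at or under background in each group. The summed intensity of 4 seed probe sets was 23.3 to 26.99 at 72 h and 21.4 to 23.3 at 48 h with Al, near background. Of 5 nodule probe sets, the sum was 1155 to 1737 at 72 h and 1592 to 4022 at 48 h with Al. No marker of root meristem or root cap was among the tested genes, so the labelled tip was not checked by markers.

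With Al, 4447 probe sets (12.6% of those tested) differed between 72 h and 48 h, 2318 higher at 72 h (6.57%) and 2129 lower (6.03%). The changes were unequal in size. At least 4-fold falls were called for 765 probe sets and at least 4-fold rises for 70, while the median difference of all tested probe sets was 0.01. The median level of the 765 was 5.59, 5.81 and 6.05 on the Al 72 h arrays and 9.53, 9.97 and 8.57 on the Al 48 h arrays. On the untreated arrays it was 8.51, 5.93 and 5.79 at 72 h and 6.83, 6.49 and 6.30 at 48 h. The 765 were picked by their fall between these Al arrays, so the gap between the Al 48 h and Al 72 h levels follows from the choice. The untreated and Young levels did not enter that difference. The Al 72 h arrays lay beside the untreated ones other than untreated 72 h replicate 1, and every Al 48 h array lay above them. In Young with Al the same probe sets had median levels of 8.50, 9.75 and 9.30 at 72 h and 9.28, 9.70 and 9.25 at 48 h. Quantile normalisation turned the split to 3278 higher and 1975 lower. A fit of only the 6 arrays called 581 probe sets, 109 higher and 472 lower. The count was 2138 without Al 48 h replicate 1, 1138 without Al 48 h replicate 2, 7571 without Al 48 h replicate 3 and 2502 without Al 72 h replicate 1.

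WRKY transcription factors, which bind the promoters of stress and defence genes, gave more lower probe sets than any other of the lists, of which theirs is the longest. Of 104 WRKY probe sets, 33 were lower at 72 h and 2 higher, and the list's median difference was -0.50, beside 0.01 over all tested probe sets. The 33 belong to 18 genes, and both rises to WRKY24, a gene named here after its values were seen. WRKY30 had levels of 4.42, 4.46 and 4.44 at 72 h and 10.30, 11.07 and 8.87 at 48 h with Al. It was thus near background on every 72 h array and far above it on every 48 h array, a difference of -5.64 ± 0.63 (limma adjusted p = 2.39e-06). WRKY17 read 4.67, 4.76 and 4.47 at 72 h and 10.04, 11.19 and 9.09 at 48 h, a difference of -5.47 ± 0.74 (limma adjusted p = 2.71e-05). WRKY57 read 5.46, 5.32 and 5.47 at 72 h and 10.35, 10.11 and 9.49 at 48 h. WRKY58, whose probe set had the highest signal of these 4, read 9.36, 8.41 and 8.84 at 72 h and 13.23, 13.12 and 12.45 at 48 h. The groups do not overlap for any of these 4 genes, and each kept its call without any single Al array. The list's count of lower probe sets fell to 18 without Al 48 h replicate 2 and to 19 without Al 72 h replicate 1.

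NAC transcription factors, regulators of stress and senescence programmes, included some of the deeper falls. Of 40 probe sets, 10 (6 genes) were lower and none higher, with a median difference of -0.82. NAC6 read 5.08, 5.04 and 5.47 at 72 h and 9.82, 11.09 and 9.42 at 48 h, a difference of -4.91 ± 0.79. LOC100816770 (NAC55) fell by 3.12 on the log2 scale, and all 3 probe sets of NAC23 were lower, the one with the smallest p by a difference of -2.65. The count of 10 dropped to 5 without Al 48 h replicate 2 and to 6 without Al 72 h replicate 1. The MYB family was split, with 8 of 98 probe sets higher and 7 lower, shares near the 6.57% and 6.03% of all tested probe sets. Without Al 48 h replicate 2 these counts were 2 and 2, and without Al 48 h replicate 3 they were 12 and 10. The AP2/ERF family had 3 of 19 probe sets higher and 2 lower. ERF5 and the ethylene-responsive EREBP1 fell (-1.39 ± 0.28 and -1.26 ± 0.32), while DREB rose by 0.79 ± 0.15. EREBP1 was not called without Al 48 h replicate 1 or without Al 48 h replicate 2.

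**Figure D1:**
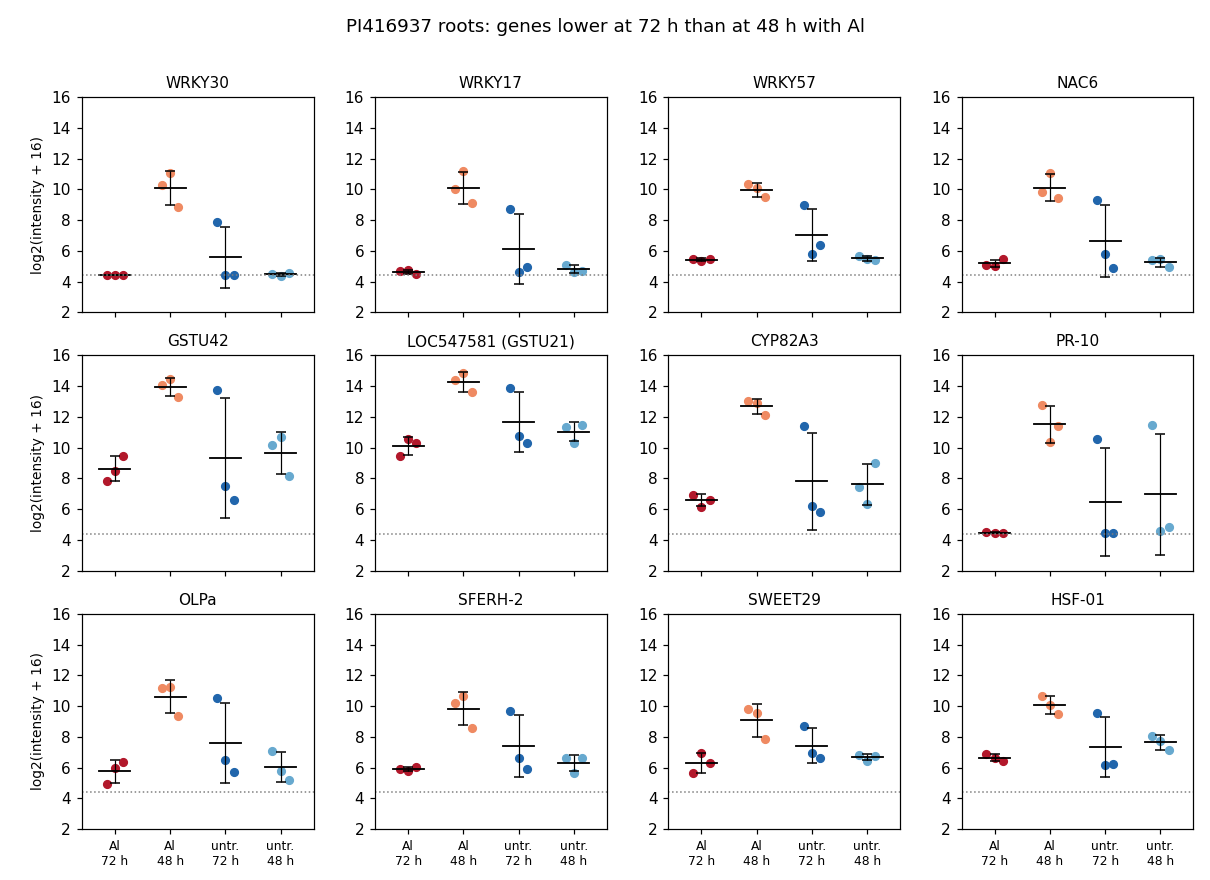
Level of 12 genes on each PI416937 array, log2(intensity + 16), with Al at 72 h, with Al at 48 h, untreated at 72 h and untreated at 48 h. Points are arrays, bars are group means with SD (n = 3), and the dotted line is the background at 4.42. The Al 72 h points lie below the Al 48 h points in all 12 panels, and 1 untreated 72 h point, replicate 1, lies far above the other points of its group.

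Some enzymes of detoxification and of phenylpropanoid synthesis were lower at 72 h, in shares above the 6.03% of all tested probe sets. Of 58 probe sets for glutathione S-transferases, which conjugate reactive compounds to glutathione, 11 (9 genes) were lower and none higher, with a median of -0.48. GSTU42 read 7.86, 8.52 and 9.48 at 72 h and 14.08, 14.49 and 13.29 at 48 h, a difference of -5.33 ± 1.18 (limma adjusted p = 0.00357). LOC547581 (GSTU21) read 9.45, 10.56 and 10.31 at 72 h and 14.42, 14.87 and 13.60 at 48 h. For both genes the 72 h arrays lay below every 48 h array. Of 75 phenylpropanoid and isoflavonoid probe sets, 14 (9 genes) were lower and 1 higher, with a median of -0.26. CYP93A1, the dihydroxypterocarpan hydroxylase of the soybean phytoalexin glyceollin, read 5.18, 5.36 and 5.17 at 72 h and 10.04, 9.62 and 8.06 at 48 h. Isoflavone reductase IFR differed by -2.77 ± 0.62. Chalcone synthase CHS1, named after its values were seen, gave 5 of the 14 lower probe sets, with differences of -1.58 to -2.77. Of 52 cytochrome P450 probe sets, 9 were lower and 1 higher. CYP82A3 read 6.94, 6.17 and 6.61 at 72 h and 13.02, 12.91 and 12.13 at 48 h, and 3 of its 4 probe sets were lower. CYP82A2 differed by -4.55 ± 1.22 and lost its call without Al 48 h replicate 1, Al 72 h replicate 1 or Al 72 h replicate 2. Without Al 48 h replicate 2 the counts of lower probe sets were 2 for glutathione S-transferases, 4 for phenylpropanoid synthesis and 5 for cytochrome P450, and without Al 48 h replicate 1 they were 4, 5 and 3. Without Al 72 h replicate 1 they were 7, 8 and 4, and without Al 72 h replicate 2 they were 7, 6 and 4. In untreated roots 9, 16 and 5 probe sets of these lists were lower at 72 h. Without untreated 72 h replicate 1 the untreated counts were 2, 3 and 1. Some of these probe sets can match near-identical gene copies, so the copy behind CYP82A3, GSTU42 or CYP82A2 is uncertain.

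PR-10 and OLPa, both defence proteins, were among the deep falls. Of 18 pathogenesis-related and defence probe sets, 6 were lower and 1 higher, with a median of -0.54. PR-10, a small intracellular pathogenesis-related protein also known as SAM22, read 4.55, 4.47 and 4.43 at 72 h and 12.80, 10.35 and 11.40 at 48 h with Al. That is near background on every 72 h array and a difference of -7.04 ± 1.60 (limma adjusted p = 0.00445), shared by both of its probe sets. Untreated roots were not uniform for PR-10, with 10.56, 4.43 and 4.43 at 72 h and 11.50, 4.59 and 4.83 at 48 h. OLPa, an osmotin-like protein outside that list, read 4.92, 6.0 and 6.36 at 72 h and 11.20, 11.23 and 9.37 at 48 h, and all 4 of its probe sets were lower. The chitinase LOC100815291 (chib1-a) was at or under background on every 72 h array and read 7.97, 8.61 and 7.21 at 48 h. PR1-7 was likewise near background at 72 h (4.41, 4.42 and 4.43) and read 7.80, 6.57 and 6.16 at 48 h, but was not called without Al 48 h replicate 1. The Bowman-Birk inhibitor BBI-1, named after its values were seen, differed by -2.34, while BBI-2 gave the list's rise. The count of 6 fell to 3 without Al 48 h replicate 1 and to 4 without Al 48 h replicate 2, Al 72 h replicate 1 or Al 72 h replicate 2.

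Ferritin probe sets were lower too. All 4 probe sets of the ferritin SFERH-2, an iron store of plastids, were lower, and the one with the smallest p read 5.89, 5.77 and 6.01 at 72 h and 10.23, 10.64 and 8.60 at 48 h. SFERH-2 and its relative SFERH-3 (-1.35 ± 0.37) gave 5 of the 6 lower probe sets among 18 for ferritins and metal carriers, and the copper pump HMA8 (-0.80 ± 0.19) the other. None of the 6 was called without Al 48 h replicate 2. In untreated roots SFERH-3 and HMA8 were also called lower (-1.145 and -0.64). Without untreated 72 h replicate 1 HMA8 stayed called there and SFERH-3 did not. The untreated change of SFERH-2 was not called, at 1.12, or -0.03 without untreated 72 h replicate 1. The sugar exporters SWEET29 and SWEET34 were lower by -2.77 ± 0.63 and -1.69 ± 0.47, whereas SWEET42 was higher by 1.03 ± 0.29. SWEET34 and SWEET42 lost their calls without Al 48 h replicate 1 or Al 48 h replicate 2, among others. Heat shock factor HSF-01, a regulator of chaperone genes, read 6.89, 6.60 and 6.42 at 72 h and 10.65, 10.07 and 9.49 at 48 h. Of 33 heat shock probe sets 6 were lower and none higher, a count that was 2 without Al 48 h replicate 1 or 2, 3 without Al 72 h replicate 1 or 2, and 10 without Al 48 h replicate 3. In untreated roots 7 of the 33 were lower and 1 higher, or 6 and 0 without untreated 72 h replicate 1. A difference of the change between the treatments was called for none of the 33. The calmodulin SCAM-4 differed by -2.25 ± 0.47 in a list of 11 calcium signalling probe sets, 3 lower and 1 higher, or 1 lower and none higher without Al 48 h replicate 2. JAZ1 (LOC100778559), a repressor of jasmonate responses, differed by -2.34 ± 0.59 and was not called without Al 48 h replicate 1. Gibberellin 2-oxidase GA2OX8 differed by -2.33 ± 0.78 (limma adjusted p = 0.0463), and lost its call without any one of 5 of the 6 Al arrays and under quantile normalisation, an offset of 1 or no filter.

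Some of the deepest falls have no gene name beyond a locus number, or none. LOC100306414 read 4.93, 4.59 and 4.94 at 72 h and 11.44, 11.23 and 10.14 at 48 h (-6.11 ± 0.67, limma adjusted p = 1.75e-06). LOC100806530 read 4.89, 4.63 and 4.63 at 72 h and 11.07, 11.43 and 9.52 at 48 h. LOC100306181, LOC100527902, LOC100527097, LOC100101844, LOC547527 and LOC100776077 fell by 6.41, 5.96, 5.70, 5.45, 5.35 and 5.34 on the log2 scale. Among these, LOC547527 was not called without Al 48 h replicate 1 or Al 48 h replicate 2. The probe set Gma.6089.1.S1_at, without an annotated gene, had the largest fall of the unnamed ones, with 5.38, 4.39 and 4.39 at 72 h and 14.19, 14.74 and 11.58 at 48 h. Gma.1654.1.S1_s_at followed with a difference of -7.38 ± 1.34. What these transcripts encode is not analysed here.

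A second class of genes fell with and without Al. Of the 58 named genes and probe sets that were lower at 72 h with Al, 11 were also called lower in untreated roots. Of these, 8 stayed called without untreated 72 h replicate 1. LOX7, a lipoxygenase of oxylipin synthesis, read 8.74, 8.10 and 8.93 at 72 h and 10.19, 11.03 and 10.55 at 48 h with Al, and 9.85, 8.17 and 8.15 at 72 h and 11.80, 11.19 and 11.48 at 48 h untreated. The 72 h levels were below the 48 h levels in both treatments. For LOX9, 1 of 5 probe sets was called lower with Al. Its change was -1.78 ± 0.60 with Al and -2.94 untreated. The call with Al was lost without any of the 6 Al arrays except Al 72 h replicate 3. The jasmonate and lipoxygenase list had 5 of 39 probe sets lower with Al (median -0.62) and 17 lower untreated (median -1.07), of which 11 stayed called without untreated 72 h replicate 1. The 5 with Al were 2 without Al 48 h replicate 1 or 2, and 3 without Al 72 h replicate 1 or 2. MYB73 differed by -2.75 ± 0.58 with Al and -2.30 untreated. The aquaporin PIP1-8, a plasma membrane water channel, differed by -1.43 ± 0.29 with Al and -1.38 untreated. The isoflavone reductase LOC547659 (IFR1) differed by -2.20 ± 0.46 with Al and -1.68 untreated, where the call was lost without untreated 72 h replicate 1 (-1.60, limma adjusted p = 0.0829), and its Al 72 h values were uneven at 8.99, 11.44 and 11.57. The hydrogen peroxide scavenger APX2 was also lower in both treatments (-0.93 ± 0.23 with Al, -1.16 untreated), but not called with Al without Al 48 h replicate 1 or Al 48 h replicate 2. GSTU17 was the exception among the named glutathione S-transferases, with -1.07 ± 0.24 with Al and -1.53 untreated, and was not called without Al 48 h replicate 2.

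Rises were mostly small, with 662 rises and 1498 falls of at least 2-fold. The largest among genes with a symbol was BBI-2, a Bowman-Birk protease inhibitor, at 11.85, 10.09 and 10.21 at 72 h and 6.39, 7.73 and 9.70 at 48 h with Al. Its 48 h values were spread over more than 3 log2 units, and its call (2.78 ± 0.91, limma adjusted p = 0.042) was lost without any of the Al arrays other than Al 48 h replicate 3. GASA6, of the gibberellin-stimulated family of small cysteine-rich proteins, read 11.64, 11.46 and 10.95 at 72 h and 10.13, 7.42 and 9.29 at 48 h, and lost its call without Al 48 h replicate 2. FAD2-1A, an oleate desaturase, read 6.85, 6.67 and 7.23 at 72 h and 4.94, 4.84 and 5.47 at 48 h, a difference of 1.84 ± 0.40. PSK3, annotated as a phytosulfokine gene, a family of growth peptide precursors, read 7.53, 6.86 and 6.97 at 72 h and 5.39, 5.24 and 5.68 at 48 h. Both kept their calls without any single Al array. The receptor-like kinase RLK1 read 10.47, 10.09 and 9.91 at 72 h and 9.15, 8.99 and 8.96 at 48 h, a difference of 1.12 ± 0.19 (limma adjusted p = 0.000341) that held without each Al array. The auxin receptor TIR1C (0.75 ± 0.15) and the DELLA repressor GAI1 (0.78 ± 0.16) rose by smaller amounts with tight replicates, and DREB and MYB51 (1.23 ± 0.28) likewise kept their calls without each Al array. In a fit of only the Al arrays compared, RLK1, GAI1 and DREB were not called, while FAD2-1A, PSK3, TIR1C and MYB51 were. All these genes were also called higher at 72 h in untreated roots. FAD2-1A, PSK3, RLK1 and TIR1C differed there by 1.43, 1.24, 0.68 and 0.44. GAI1, DREB and MYB51 differed there by 0.54, 0.77 and 0.85. Without untreated 72 h replicate 1 only FAD2-1A, PSK3 and DREB of them stayed called untreated.

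Ureide and nitrogen genes gave 6 of 29 probe sets higher and none lower with Al, with a median of 0.00. Allantoate amidohydrolase AAH, which releases ammonium from ureides, had all 4 probe sets higher. The one with the smallest p read 10.38, 10.11 and 9.77 at 72 h and 9.06, 8.37 and 9.82 at 48 h, so the groups overlap by 1 array. The uricase UR9 read 7.79, 6.97 and 7.76 at 72 h and 5.21, 5.17 and 6.74 at 48 h. Inducible nitrate reductase INR2 was above background on only 2 of the 3 Al 72 h arrays (5.55, 4.38 and 5.49) and on none at 48 h. The count of 6 was 2 without Al 48 h replicate 1, none without Al 48 h replicate 2, 1 without Al 72 h replicate 1 and 3 without Al 72 h replicate 2 or 3. Of 103 bZIP and bHLH probe sets 11 were higher and 1 lower, a share of higher ones that was 17 of 103 after quantile normalisation and 0 without Al 48 h replicate 2. Without Al 48 h replicate 1 it was 3, without Al 48 h replicate 3 it was 19, and without Al 72 h replicates 1, 2 and 3 it was 5, 7 and 3. BZIP117 differed by 1.22 ± 0.28 in that list. Of 43 aquaporin probe sets 5 were higher, among them PIP1-4 (1.26 ± 0.30) and SIP1-3 (1.11 ± 0.27), and 2 lower, while none was higher without Al 48 h replicate 2. BZIP117, PIP1-4 and SIP1-3 were not called without Al 48 h replicate 2. Untreated roots had 5 nitrogen, 10 bZIP and bHLH and 1 aquaporin probe sets higher at 72 h, and 3, 1 and 3 lower. Without untreated 72 h replicate 1 the higher counts were 3, 2 and 0. AAH, BZIP117 and PIP1-4 were called higher untreated too (1.25, 1.11 and 1.03), and only AAH of them without that array. UR9, INR2 and SIP1-3 were not called untreated.

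Some named rises were also called without Al, a count that rests on 1 array. Of the 36 named genes and probe sets higher at 72 h with Al, 21 were called higher in untreated roots too, and 8 without untreated 72 h replicate 1, where all 21 kept a positive difference. With all arrays, for none of the 36 was the difference between the treatments called. ENOD93, an early nodulin gene, read 7.23, 7.49 and 7.71 at 72 h and 4.43, 4.39 and 6.42 at 48 h with Al, and 9.68, 8.69 and 7.20 at 72 h and 4.42, 4.40 and 4.39 at 48 h untreated. It was near background on all untreated 48 h arrays and above it on all 72 h arrays. GLB3 differed by 2.17 ± 0.68 with Al and 2.42 untreated, and the iron superoxide dismutase SODB2 by 1.75 ± 0.58 with Al and 2.89 untreated. Without untreated 72 h replicate 1, ENOD93 and SODB2 stayed called untreated and GLB3 did not (2.04, limma adjusted p = 0.123). The 3 calls with Al were each lost without Al 48 h replicate 1 or Al 48 h replicate 2, among others. The median level of the 70 probe sets with at least 4-fold rises was 10.34, 9.60 and 10.21 with Al at 72 h and 6.58, 6.38 and 8.77 with Al at 48 h, and 10.10, 9.77 and 9.02 untreated at 72 h and 7.82, 6.93 and 6.51 untreated at 48 h. The 72 h arrays of both treatments lay above the 48 h arrays of both, with Al 48 h replicate 3 the highest of the 48 h arrays. For the Al arrays the gap follows from the choice of the 70, while the untreated levels did not enter that difference. The unannotated probe set Gma.4112.1.S1_at had the largest rise of these named, 5.62 ± 1.56 with Al and 6.31 untreated. Its untreated difference was 5.89 (limma adjusted p = 0.0581) without untreated 72 h replicate 1, and it was not called with Al without Al 48 h replicate 1, Al 48 h replicate 2 or Al 72 h replicate 3.

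**Figure D2:**
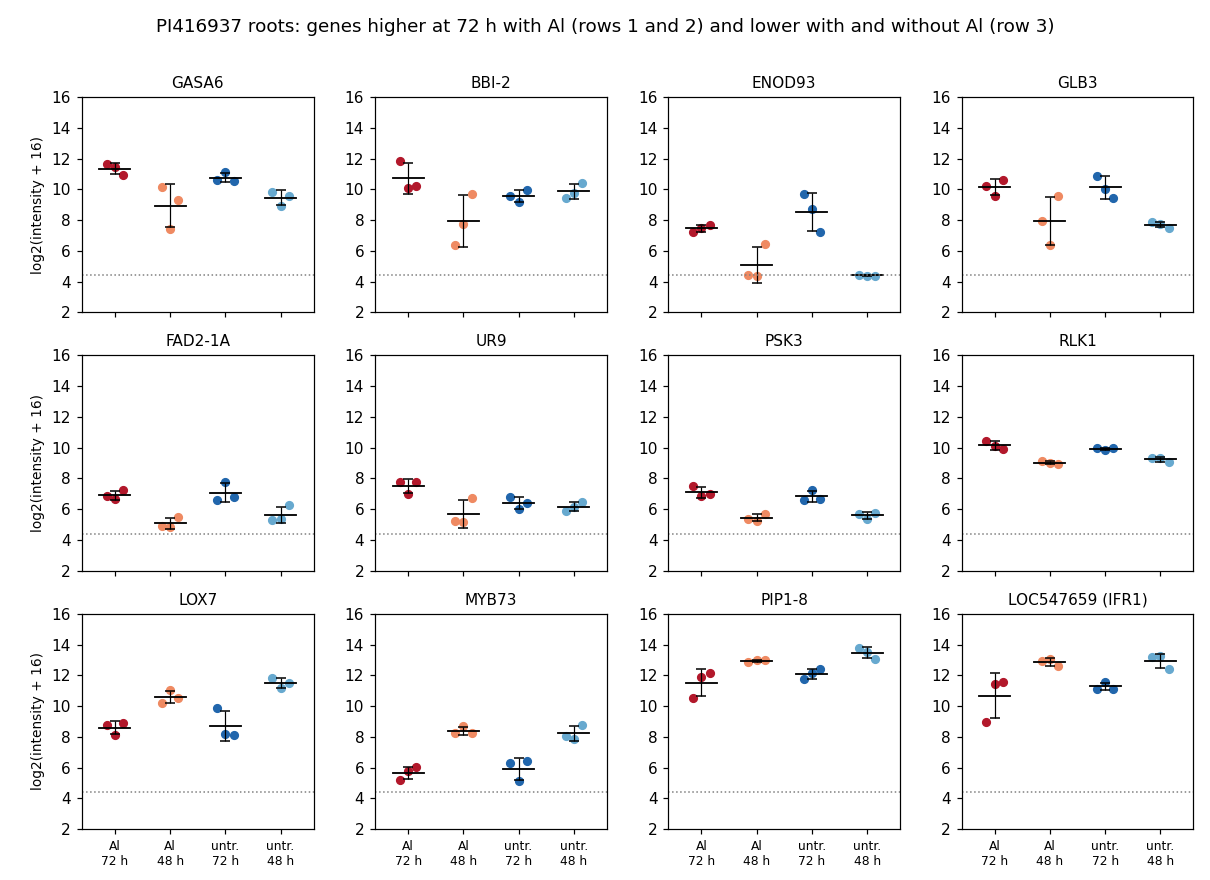
Level of 12 genes on each PI416937 array, log2(intensity + 16), with Al at 72 h, with Al at 48 h, untreated at 72 h and untreated at 48 h. Points are arrays, bars are group means with SD (n = 3), and the dotted line is the background at 4.42. Rows 1 and 2 hold genes higher at 72 h with Al, row 3 holds genes lower at 72 h with and without Al, and BBI-2 and UR9 show little untreated change.

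**Figure D3:**
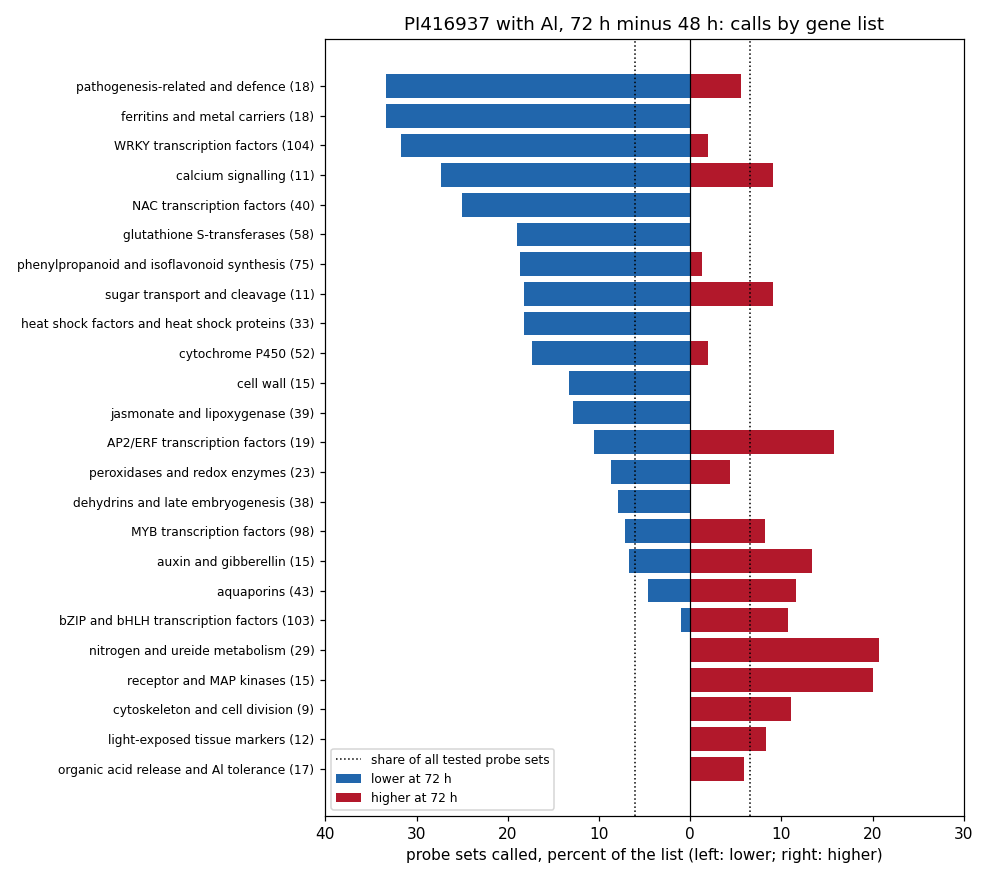
Share of each gene list's tested probe sets that were called with Al, in percent, lower at 72 h to the left and higher to the right, for lists of at least 9 probe sets (number in brackets). The dotted lines are the shares of all tested probe sets, 6.03% lower and 6.57% higher. WRKY factors, ferritins and metal carriers and defence genes reach furthest to the left, nitrogen genes and receptor kinases furthest to the right.

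Genes of organic acid release, the best known Al tolerance trait, had about the share of calls of all tested probe sets. Of 17 probe sets in that list 1 was higher (against 6.57% of all) and none lower (against 6.03%), with a median of 0.08. The rise was PPCK4, a kinase that activates phosphoenolpyruvate carboxylase (0.77 ± 0.23), which was not called without Al 48 h replicate 1 or 2 or Al 72 h replicate 2 or 3. STOP1, the transcription factor behind Al-induced malate release in Arabidopsis, differed by -0.20 (limma adjusted p = 0.583), and the citrate transporter homologue FRD3a by 0.12 (limma adjusted p = 0.938). Both are named after their values were seen. Of the remaining lists, peroxidases and redox enzymes had 1 of 23 probe sets higher and 2 lower, cell wall genes 2 of 15 lower, both of the proline-rich wall protein PRP2 (-2.13 ± 0.55), and cytoskeleton genes 1 of 9 higher, TUBB3. Dehydrins and late embryogenesis genes had 3 of 38 lower, all dim, a share near the 6.03% of all, and none without Al 48 h replicate 2, Al 72 h replicate 1 or Al 72 h replicate 2. Lists for ethylene and abscisic acid (5 probe sets) and for the glyoxylate cycle (3 probe sets) had none called. None of the PRP2 and TUBB3 calls held without Al 48 h replicate 1 or without Al 48 h replicate 2.

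Without Al, 5575 probe sets (15.8%) differed between 72 h and 48 h, 2437 higher (6.91%) and 3138 lower (8.89%). This comparison shares no array with the one under Al. Higher in both were 950 probe sets, which are 41% of those higher with Al and 39% of those higher untreated. Lower in both were 411, which are 19.3% of those lower with Al and 13.1% of those lower untreated. Opposite calls were rare, with 3 probe sets higher with Al and lower untreated and 19 lower with Al and higher untreated. Without untreated 72 h replicate 1 the untreated count was 1209, with 406 higher in both (16.6% of those with Al and 64.3% of the untreated) and 260 lower in both (11.1% and 45.0%). It was 2795 without untreated 48 h replicate 3 and 3175 without untreated 72 h replicate 2, and 2 in a fit of only the 6 untreated arrays.

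The change differed between Al and untreated roots for 638 probe sets (1.81%), 571 more negative with Al (1.62%) and 67 more positive (0.19%). A shift that the run of 72 h sample codes adds equally to both treatments cancels in this test. Of 94 named genes and probe sets, 29 were called, and each of them had fallen with Al. WRKY57 changed by -4.56 with Al and 1.55 untreated, a difference of -6.12 ± 0.71 (limma adjusted p = 4.46e-05). WRKY30 gave a difference of -6.74 ± 0.89 (limma adjusted p = 0.000185), WRKY17 of -6.79 ± 1.04 and WRKY58 of -5.84 ± 0.81. LOC100306414 gave the smallest p after WRKY57, at -7.65 ± 0.95 (limma adjusted p = 9.78e-05). PR-10, CYP82A3 and GSTU42 had fallen with Al but were not called here (limma adjusted p = 0.161, 0.0872 and 0.141). The same held for CYP93A1, HSF-01 and IFR (limma adjusted p = 0.309, 0.13 and 0.213). Of 104 WRKY probe sets 16 were more negative with Al and none more positive, of 40 NAC probe sets 6, of 58 glutathione S-transferases 3 and of 75 phenylpropanoid probe sets 1.

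Part of this difference rests on untreated 72 h replicate 1, the array that stood apart. Without it 170 probe sets were called, 160 more negative and 10 more positive, of which 167 were also called with all arrays. WRKY30 (-5.60, limma adjusted p = 0.000197), WRKY57 (-5.15, limma adjusted p = 7.4e-06), WRKY17, WRKY58, NAC6 and LOC100816770 (NAC55) stayed called, as did 14 of the 29 in all. Those no longer called were Gma.6089.1.S1_at, LOC100306181, LOC100101844, LOC100776077, OLPa, LOC547581 (GSTU21), SFERH-2, LOC100815291 (chib1-a), SWEET29, NAC23, PR1-7, MYB76, SWEET34, ERF5 and CDPK-GAMMA. Their differences remained negative, from -7.55 for Gma.6089.1.S1_at to -0.86 for CDPK-GAMMA. The WRKY count became 6, the NAC count 3, and no glutathione S-transferase or phenylpropanoid probe set was called. The 638 became 1473 without untreated 72 h replicate 3, 338 without untreated 48 h replicate 3, 377 and 232 without Al 48 h replicates 1 and 2, 382 without Al 72 h replicate 1, and 7 in a fit of only the 12 arrays.

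**Figure D4:**
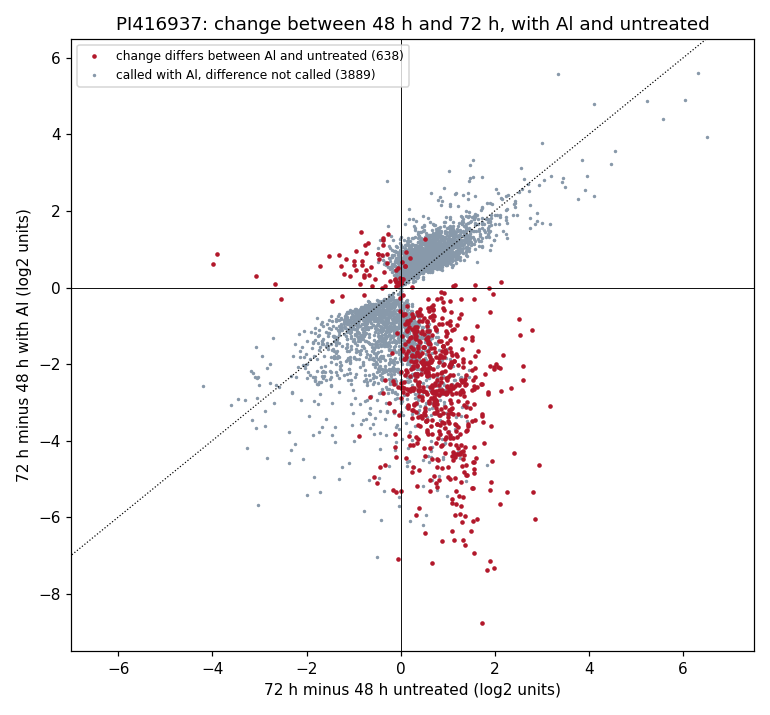
Change between the times with Al (vertical, 72 h minus 48 h, log2 units) against the change in untreated roots (horizontal, 72 h minus 48 h, log2 units), one point per probe set. Red points are the 638 probe sets whose change differed between the treatments, grey points the other probe sets called with Al, and the dotted line marks equal change. Most grey rises lie near the dotted line, and most red points lie well below 0 with Al and near or above 0 untreated.

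A few genes went the other way. The asparagine synthetase AS2, the lipoxygenase LOX10 and LOC100792188, all chosen after their values were seen, changed little between the times with Al and fell in untreated roots. AS2 read 6.79, 8.38 and 8.23 at 72 h and 7.16, 8.56 and 7.42 at 48 h with Al, and 7.08, 8.12 and 7.51 at 72 h and 9.68, 11.12 and 9.94 at 48 h untreated. Its difference of change was 2.76 ± 0.72 (limma adjusted p = 0.0396). Among the PI416937 arrays at 48 h and 72 h, only the untreated 48 h ones were high. LOX10 gave 3.39 ± 0.81 (limma adjusted p = 0.0222) and LOC100792188 4.79 ± 1.15 (limma adjusted p = 0.0237). For both, untreated 48 h was again the highest of the PI416937 groups at 48 h and 72 h. At 2 h the untreated PI416937 means were higher still, 11.17 for AS2, 12.31 for LOX10 and 11.76 for LOC100792188. For LOX10 the untreated 48 h arrays read 10.83, 10.72 and 11.31. Without untreated 72 h replicate 1 none of the 3 differences was called. They were then 2.52 for AS2, 2.82 for LOX10 and 4.21 for LOC100792188 (limma adjusted p = 0.188, 0.142 and 0.136).

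Set against untreated roots of the same time, 1425 probe sets (4.04%) were called at 48 h, 1195 higher with Al (3.39%) and 230 lower (0.652%), and 14 (0.0397%) at 72 h, 13 higher (0.0368%) and 1 lower (0.00283%), none of them by 2-fold. These comparisons share arrays with the change between the times, so their values are side by side and not further evidence. At an unadjusted p under 0.05 the 72 h comparison had 904 probe sets. At 48 h 25 of 104 WRKY probe sets, 12 of 40 NAC probe sets and 9 of 58 glutathione S-transferases were higher with Al, and at 72 h none of the 3 lists had a call. WRKY30 stood 5.60 above untreated roots at 48 h and differed by -1.14 (limma adjusted p = 1) at 72 h, or by -0.0040 without untreated 72 h replicate 1. The count at 48 h was 931 without Al 48 h replicate 1, 492 without Al 48 h replicate 2 and 624 without untreated 48 h replicate 3. At 72 h it was 21 and 26 without untreated 72 h replicates 1 and 2, 27, 68 and 61 without Al 72 h replicates 1, 2 and 3, and 0 in a fit of only those 6 arrays.

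In Young with Al, 1 probe set (0.00283%) differed between 72 h and 48 h, lower at 72 h, with 2767 at an unadjusted p under 0.05. The change with Al differed between PI416937 and Young for 60 probe sets (0.17%), 18 more positive in PI416937 (0.051%) and 42 more negative (0.119%). WRKY30 read 4.42, 4.46 and 4.44 at 72 h and 10.30, 11.07 and 8.87 at 48 h in PI416937, and 9.53, 10.77 and 9.90 at 72 h and 10.98, 10.99 and 10.21 at 48 h in Young. Its levels at 72 h were thus near background in the tolerant genotype and high on every array in the sensitive one, a difference of change of -4.98 ± 0.89 (limma adjusted p = 0.0105). WRKY57 gave -4.24 ± 0.71 (limma adjusted p = 0.00553), WRKY17 -4.94 ± 1.04 and WRKY58 -3.82 ± 0.81. LOC100306414 and LOC100306595 gave -5.63 ± 0.95 and -4.20 ± 0.75. LOC547562 (KNBS1) differs in kind, with 5.71, 5.16 and 5.46 at 72 h and 9.88, 10.51 and 9.30 at 48 h in PI416937, and between 4.47 and 4.50 on all 6 Young arrays, near background. NAC6 missed the threshold with -4.73 ± 1.12 (limma adjusted p = 0.0737), and so did CYP82A3 and PR-10 (limma adjusted p = 0.217 and 0.126). The 60 became 322 without Al 48 h replicate 3 of PI416937, 289 without untreated 72 h replicate 1 and 152 without replicate 1 of Young at 72 h. It was 19, 16 and 32 without Al 48 h replicate 1, Al 48 h replicate 2 and Al 72 h replicate 1 of PI416937, and 27, 15 and 25 without Young at 48 h replicate 1 and Young at 72 h replicates 2 and 3. Under quantile normalisation the split was 39 and 47, and with an offset of 64 it was 23 and 33. The split turned to 43 more positive and 34 more negative without Al 72 h replicate 2 of PI416937, and to 43 and 27 without Al 72 h replicate 3.

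Over the 4 times, the mean of WRKY30 and of NAC6 in PI416937 with Al was highest at 48 h. WRKY30 in PI416937 with Al averaged 4.40 ± 0.0031 at 2 h (SD, n = 2), 4.66 ± 0.17 at 12 h, 10.08 ± 1.12 at 48 h and 4.44 ± 0.02 at 72 h (SD, n = 3 each). In Young with Al it averaged 4.45 ± 0.02, 8.25 ± 1.19, 10.73 ± 0.45 and 10.07 ± 0.64 at the same times, above background at 12 h already. NAC6 in PI416937 with Al averaged 5.91 ± 0.24, 7.47 ± 0.69, 10.11 ± 0.87 and 5.20 ± 0.24. CYP82A3 took another course, with a mean of 11.52 ± 0.62 at 2 h in PI416937 with Al and 12.77 ± 0.76 in PI416937 untreated, and at 48 h of 12.69 ± 0.49 in PI416937 with Al and 7.61 ± 1.34 in PI416937 untreated. SFERH-2 in PI416937 with Al averaged 10.21 ± 0.77, 8.37 ± 1.19, 9.82 ± 1.08 and 5.89 ± 0.12. ENOD93 had means under 6 in all 4 groups up to 48 h and averaged 7.48 ± 0.24 in PI416937 and 6.87 ± 2.14 in Young with Al at 72 h.

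**Figure D5:**
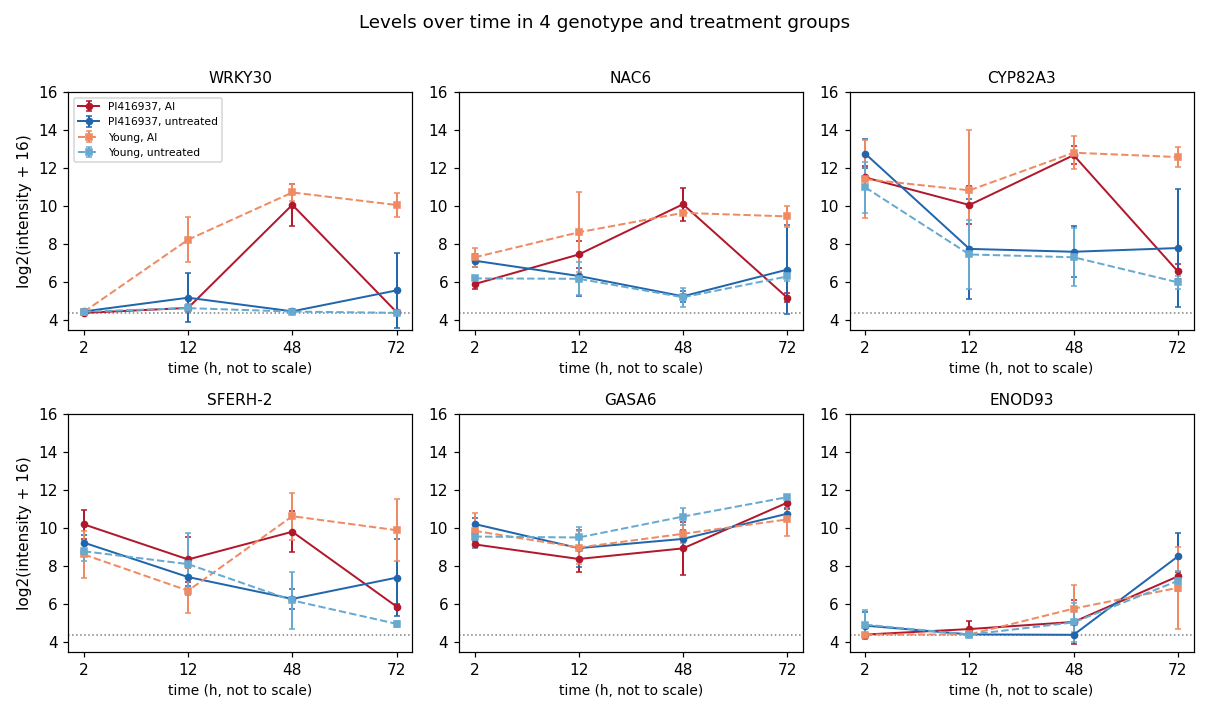
Mean level of 6 genes at 2, 12, 48 and 72 h, log2(intensity + 16), in PI416937 with Al, PI416937 untreated, Young with Al and Young untreated. Error bars are SD (n = 2 at 2 h, n = 3 at the other times), the horizontal axis is not to scale and the dotted line is the background at 4.42. WRKY30, NAC6, CYP82A3 and SFERH-2 drop at 72 h in PI416937 with Al and stay high in Young with Al, while GASA6 and ENOD93 are higher at 72 h than at 48 h in all 4 groups.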

How the data were processed

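The deposited table holds an intensity on a linear scale for each probe set and array. Per the labels, biotin-labelled cRNA made with oligo-dT priming and a 3' IVT kit was hybridised to the arrays, so the 3' end of transcripts is measured. The authors' summarisation and normalisation of these deposited intensities are not given in the sources used here. An offset of 16 was added before log2, and all 37593 soybean probe sets were filtered to 35289 whose mean exceeded the background in at least 1 group. limma 3.58.1 in R 4.3.3 was fitted on 16 group means over 44 arrays (28 residual and 1.94 prior degrees of freedom), with eBayes and a variance trend, so the spread is shared by all groups. P-values were adjusted by Benjamini-Hochberg within each comparison. On simulated data the fit recovered the added changes only in part, and fewer of the small ones.

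Gene names came from the platform annotation, updated through Entrez gene numbers to RefSeq of Glycine_max_v4.0. Of the tested probe sets, 8418 had 1 gene, 363 several and 26508 none. Gene lists were matched by symbol or synonym. Named were, among called probe sets with 1 gene, the 12 largest falls and rises, the 8 largest falls and rises with a symbol, up to 3 members of each list by smallest p, the 10 by smallest p for the difference from untreated, and up to 2 probe sets without a gene in each direction. Where a named gene had several probe sets, its values are those of the called one with the smallest p. With Al, 1 of 5 probe sets was called in the stated direction for LOX9 and 2 of 5 for KNBS1. For LOX7 and JAZ1 it was 2 of 4, and for APX2 and SFERH-3 1 of 3. For CYP93A1, IFR, PR1-7, GA2OX8, GSTU17 and GAI1 it was 1 of 2. The members and lists were chosen with earlier results of these data known. Planned promoter motifs were not analysed here. Alternatives were offsets of 1 and 64, quantile normalisation, no filter, no variance trend, only the arrays compared, a replicate block, and each array left out. The number of arrays limits the precision.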

Additional observations from a re-analysis of the deposited data

Results flagged for a closer look

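The 72 h minus 48 h change differed between Al and untreated PI416937 roots for 638 probe sets by a limma interaction contrast, and between PI416937 and Young with Al for 60. Beyond these counts, each named gene or probe set whose change differed is given here with its difference of change in log2 units, Al minus untreated. Among transcription factors these were WRKY30 (-6.74), WRKY17 (-6.79), WRKY57 (-6.12), WRKY58 (-5.84), NAC6 (-6.31), NAC55 at LOC100816770 (-4.50), NAC23 (-2.86), MYB76 (-2.18) and ERF5 (-1.54). Among enzymes, defence proteins, carriers and kinases they were OLPa (-6.41), GSTU21 at LOC547581 (-4.82), the chitinase LOC100815291 (-4.35), PR1-7 (-3.20), SFERH-2 (-5.05), SWEET29 (-3.51), SWEET34 (-2.66) and CDPK-GAMMA (-1.03). Genes with a locus number were LOC100306181 (-6.92), LOC100306414 (-7.65), LOC100527902 (-7.12), LOC100806530 (-6.27), LOC100101844 (-6.69), LOC100776077 (-5.24), LOC547562 (-6.05), LOC100306595 (-4.93), LOC100500381 (-5.10) and LOC100500285 (-5.13). The unannotated probe sets were Gma.6089.1.S1_at (-10.51) and Gma.1654.1.S1_s_at (-9.22). The change with Al in PI416937 minus that in Young was called for WRKY30 (-4.98), WRKY17 (-4.94), WRKY57 (-4.24), WRKY58 (-3.82), LOC100306414 (-5.63), LOC547562 (-4.44), LOC100306595 (-4.20) and the poly(ADP-ribose) polymerase PARP3 (-0.92), which is dim in both genotypes.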

How the results depend on the processing

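No called value of a named gene changed sign under the alternatives run, but the counts moved. With only the arrays compared in the fit, the counts were 581 for the change with Al, 2 for untreated, 7 for the difference between them, 106 for the difference from Young, 246 for Al against untreated at 48 h and 0 at 72 h, where 904 had an unadjusted p under 0.05 in the shared fit. That fit has fewer arrays for the spread, and it kept 33 of the 94 named calls. Of the named rises it kept only TIR1C, MYB51, PSK3 and FAD2-1A, and the other calls it kept were falls. Without single arrays the counts ranged from 1138 to 7571 with Al, from 1209 to 8005 untreated, from 170 to 1473 for the difference, from 15 to 322 for the difference from Young, from 492 to 1626 at 48 h and from 20 to 68 at 72 h. Without untreated 72 h replicate 1, a choice made after seeing the data, the difference from Young gave 289 and Al against untreated at 48 h gave 1984. At 72 h Al against untreated gave 8 without a variance trend and 40 with the replicate block. The replicate numbers did not pair the Al arrays (correlations of deviations 0.29, -0.21 and 0.20), and with them as a block 4767 probe sets were called with Al. Of the named calls, 44 of 94 held without each of the 6 Al arrays. The cause of these shifts was not tested. Genes near the background of 4.42 at 72 h have only a bound there.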
